A study of Mus musculus with 24 samples.

Results

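Small nucleolar RNAs (snoRNAs) were described by the counts of their genes in nuclear RNA of the mouse hippocampus. The members were selected on their summed read counts: they were all gene symbols made of Snora or Snord, a number and optional small letters, with at least 10 reads summed over the 24 libraries. All 121 symbols of this form passed that minimum, out of 55254 genes in the count tables, so that no member fell just outside it. The member with the fewest reads was Snord38a, with 30 reads in all. Of the 121 genes, 81 were Snord genes of the C/D box class and 40 were Snora genes of the H/ACA box class.

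The libraries came from hippocampal nuclei of 6-month-old mice on a C57BL/6N background (the study used males), sorted by flow cytometry with an antibody to NeuN, a nuclear protein of neurons. NeuN+ nuclei are neuronal, and NeuN- nuclei are mainly those of glia. The genotypes were WT, Mutyh-/-, Ogg1-/- and the double knockout of both genes (DKO), with 3 libraries for each genotype and fraction, which gave 8 groups. Ogg1 and Mutyh encode DNA glycosylases that act on 8-oxoguanine and on adenine paired with it. The labels name no treatment in any group. The study's methods describe nuclei pooled from several animals and knockout strains made earlier, and its general statement on independent biological replicates does not name these libraries. The labels do not say what separates the 3 replicates of a group, so p-values measure the spread between these libraries, which may be technical.

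Most snoRNAs of mammals are cut out of the introns of host genes, many of which encode ribosomal proteins or are long noncoding RNAs. C/D box snoRNAs guide 2'-O-methylation of ribosomal RNA with the proteins Fbl, Nop56, Nop58 and Snu13, and H/ACA box snoRNAs guide pseudouridylation with Dkc1, Nhp2, Nop10 and Gar1. A few, among them Snord118 (U8), Snora73 (U17) and Snord22 (U22), act in the cleavage of the ribosomal RNA precursor, and some snoRNAs of the imprinted Snrpn locus have no known ribosomal target. In neurons the imprinted snoRNA clusters are known for their high expression. In total nuclear RNA, reads of a host's precursor that lie over a snoRNA can be counted with the snoRNA, so that a count here may hold both.

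The sequences below are those of the members on which the results turn, taken from GENCODE vM21 on the GRCm38 build, 5' to 3' on the gene's own strand. In the C/D members the capitals mark the letters TGATGA of box C, searched in the first 20 bases, and CTGA of box D, searched in the last 20 bases. In the H/ACA members the capitals mark an ACA that ends 2 to 4 bases before the 3' end. The first set was higher in NeuN+ nuclei in every genotype. Snord107 (chr7:59980876-59980945) and Snord64 (chr7:59978808-59978874), both on the minus strand, lie within Gm38393, a gene of the imprinted Snrpn locus. Snord69 (chr14:31014287-31014366, minus strand) lies within Gnl3, which encodes a nucleolar GTP-binding protein, and Snord60 (chr17:24528476-24528553, plus strand) lies within Rab26os.
Snord107: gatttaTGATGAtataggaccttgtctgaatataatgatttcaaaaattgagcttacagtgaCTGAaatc
Snord64: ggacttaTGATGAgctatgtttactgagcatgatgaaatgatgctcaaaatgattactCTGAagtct
Snord69: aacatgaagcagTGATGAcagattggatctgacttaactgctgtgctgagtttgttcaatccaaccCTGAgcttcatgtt
Snord60: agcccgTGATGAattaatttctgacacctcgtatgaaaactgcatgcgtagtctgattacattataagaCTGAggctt

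The next set was lower in NeuN+ nuclei in WT. Snord4a (chr11:78181686-78181756) and Snord42a (chr11:78181299-78181363) lie on the minus strand in introns of Rpl23a, a ribosomal protein gene. Snora20 (chr17:12922790-12922917, plus strand) lies in an intron of Tcp1, a chaperonin subunit gene, and Snord17 (chr2:144265979-144266216, minus strand), the longest member with 238 bases, in an intron of Snx5, which encodes a sorting nexin.
Snord4a: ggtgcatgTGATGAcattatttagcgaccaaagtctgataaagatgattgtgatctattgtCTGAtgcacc
Snord42a: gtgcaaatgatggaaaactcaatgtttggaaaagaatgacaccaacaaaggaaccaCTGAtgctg
Snora20: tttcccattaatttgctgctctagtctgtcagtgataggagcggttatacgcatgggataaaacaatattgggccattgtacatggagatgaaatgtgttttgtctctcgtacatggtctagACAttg
Snord17: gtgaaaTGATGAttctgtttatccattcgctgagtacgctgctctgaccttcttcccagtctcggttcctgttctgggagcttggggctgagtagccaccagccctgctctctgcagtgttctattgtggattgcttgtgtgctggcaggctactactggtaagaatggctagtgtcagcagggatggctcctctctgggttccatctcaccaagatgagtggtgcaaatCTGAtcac

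The following members are shown for their high level or their known role. Snord15b (chr7:99479563-99479707, minus strand, within Rps3) had the most reads, and Snord22 (chr19:8725866-8725991, plus strand, within Snhg1) and Snora21 (chr11:97781639-97781775, minus strand, in an intron of Rpl23) were also among the highest. Snord118 (chr11:69073427-69073561, plus strand) is U8 and had no annotated host. Snora73a (chr4:132352775-132352979) and Snora73b (chr4:132352322-132352526), both on the minus strand within Snhg3, were 96.6% identical, so that the split of reads between them is uncertain.
Snord15b: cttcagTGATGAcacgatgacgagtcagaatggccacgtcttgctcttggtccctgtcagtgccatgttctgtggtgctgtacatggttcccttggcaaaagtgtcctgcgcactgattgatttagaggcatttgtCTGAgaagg
Snord22: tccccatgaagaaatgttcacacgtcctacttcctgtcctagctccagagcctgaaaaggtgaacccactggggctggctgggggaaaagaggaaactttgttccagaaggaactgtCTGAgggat
Snora21: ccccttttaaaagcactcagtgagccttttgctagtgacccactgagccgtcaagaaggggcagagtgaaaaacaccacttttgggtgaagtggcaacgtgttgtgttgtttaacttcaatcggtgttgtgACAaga
Snord118: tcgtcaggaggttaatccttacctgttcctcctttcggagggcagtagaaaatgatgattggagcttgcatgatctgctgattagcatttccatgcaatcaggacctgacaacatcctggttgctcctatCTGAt
Snora73a: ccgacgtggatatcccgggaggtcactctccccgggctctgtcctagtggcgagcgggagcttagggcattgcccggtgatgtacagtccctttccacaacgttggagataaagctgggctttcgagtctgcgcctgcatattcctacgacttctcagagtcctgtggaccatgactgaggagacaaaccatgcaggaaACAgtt
Snora73b: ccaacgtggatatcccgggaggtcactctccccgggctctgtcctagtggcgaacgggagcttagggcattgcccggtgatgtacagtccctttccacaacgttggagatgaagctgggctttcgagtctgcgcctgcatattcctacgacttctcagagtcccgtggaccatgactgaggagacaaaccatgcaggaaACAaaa

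The box letters divided the members by class. CTGA was found near the 3' end in 79 of 81 C/D members, and TGATGA near the 5' end in 52 of them. Both sets of letters were found together in 50 C/D members (61.7%), in 0 of 40 H/ACA members, and in 309 of 1507 annotated snoRNA genes (20.5%). The ACA stood near the end of 38 H/ACA members (95%) and of 2 C/D members (2.47%), against 43.5% of all annotated snoRNA genes. These exact letters miss degenerate boxes, as in Snord42a and Snord22, where TGATGA was not found in the window.

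C/D members were 64 to 238 bases long with a median of 79, and H/ACA members 121 to 205 bases with a median of 132. A host on the same strand was annotated for 115 members, in 82 genes. Of these members, 53 lay wholly in introns and 62 overlapped an exon of some transcript of the host. The host encoded a protein for 83 members and was noncoding for 32, and 32 members lay in 23 ribosomal protein genes. At least 1 other annotated snoRNA gene of 85% identity or more existed for 38 members, and 10 members overlapped a gene on the opposite strand. How the counting treated strand and reads with several matches is not given in the sources used here, so the counts of these members are uncertain.

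Library totals ranged from 56563586 to 96192142 counts assigned to genes. The 121 members took 0.0378% to 0.0607% of a library and 854907 reads in all. In NeuN+ libraries their share was 0.0412% ± 0.0024 in WT, 0.0483% ± 0.0068 in Mutyh-/-, 0.0428% ± 0.0050 in Ogg1-/- and 0.0437% ± 0.0005 in DKO (SD, n = 3 each). In NeuN- libraries it was 0.0532% ± 0.0025, 0.0540% ± 0.0045, 0.0546% ± 0.0028 and 0.0544% ± 0.0067, in the same order. The lowest share of a NeuN- library, 0.0474%, lay below the highest of a NeuN+ library, 0.0532%.

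The sort was checked by marker genes in WT. Of 8 neuronal markers, 7 were called higher in NeuN+ nuclei, and 22 of the 22 markers of astrocytes, oligodendrocytes, their precursors, microglia and endothelial cells were called lower. The targeted genes did not show a loss in the labelled knockouts. Mutyh had 1.15 to 1.28 CPM (reads scaled to the library total after TMM normalisation) in WT NeuN+ libraries and 9.88 to 11.5 CPM in those labelled Mutyh-/-. Ogg1 had 2.77 to 3.77 CPM in WT NeuN+ libraries and 3.21 to 3.66 CPM in those labelled Ogg1-/-. A count over the whole gene does not tell its exons apart, and the genotypes below are those of the labels.

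Levels spread over several orders of magnitude between members. The level of a gene relative to others is given in FPKM, reads scaled to annotated length and to the library total after TMM normalisation, as a mean of 24 libraries. Snord15b led with 877 FPKM, followed by Snord17 with 333, Snord22 with 223 and Snora74a with 208 FPKM. Snora21 had 166, Snora81 had 148, Snord15a had 133 and Snora23 had 112 FPKM. Below these stood Snord21 with 81.9, Snora73b with 69.1, Snora73a with 69.0 and Snora64 with 47.8 FPKM. The 3 members with the most reads held 50.7% of all member reads and the 10 with the most held 80.6%, while the median member had 950 reads over 24 libraries.

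In WT, the spread between replicates set which of these neighbours differed in level. Snord15b had 871 ± 113 FPKM in NeuN+ and 804 ± 85.8 FPKM in NeuN- libraries (SD, n = 3 each), far above Snord17. Snord22 with 179 ± 34.9 FPKM and Snord17 with 198 ± 13.5 FPKM in WT NeuN+ libraries lay within their spread of each other. In WT NeuN- libraries they did not. There Snord17 had 107 to 120 CPM and Snord22 27.8 to 35.2 CPM in the fit within the cell type. That gap exceeds the ratio of their lengths, 238 and 126 bases. Snora73a and Snora73b, the near-identical copies, had 55.6 ± 2.99 and 57.9 ± 5.81 FPKM in WT NeuN+ libraries and did not differ beyond their spread. 

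The other members that were listed for known roles were lower than these. Snord118 had 8.83 FPKM and ranked 38 of 121, and Snord13 (U13) had 1.72 FPKM and ranked 104. The U14 genes of Hspa8, a heat shock cognate gene, had 14.2 FPKM for Snord14e, 10.2 for Snord14d and 8.48 for Snord14c, and the sequences of Snord14c and Snord14d were 97.7% identical. In Rpl13a, a ribosomal protein gene, Snord35a had 19.2 FPKM, Snord34 had 5.68, Snord33 had 4.56 and Snord32a had 3.73 FPKM. Snord47 of Gas5, a noncoding host, had 4.53 FPKM. Members of the same host differed in level, and over the 24 hosts with at least 2 members the highest member had a median of 1.88 times the FPKM of the lowest.

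Length went with level. The 69 members under 100 bases held 7.9% of the member reads and had a median of 648 reads, whereas the 52 members of 100 bases or more had a median of 2049.5 reads. Spearman's correlation between length and reads across the 121 members was 0.54, and between length and FPKM 0.36. Within the C/D class the correlation of length with reads was 0.15 and within the H/ACA class 0.35. Members are not independent of each other, since many share a host and all share the libraries. The libraries were read as pairs of 100 bases, so that the shorter members are shorter than a read, and how far this lowered their counts was not tested.

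**Figure D1:**
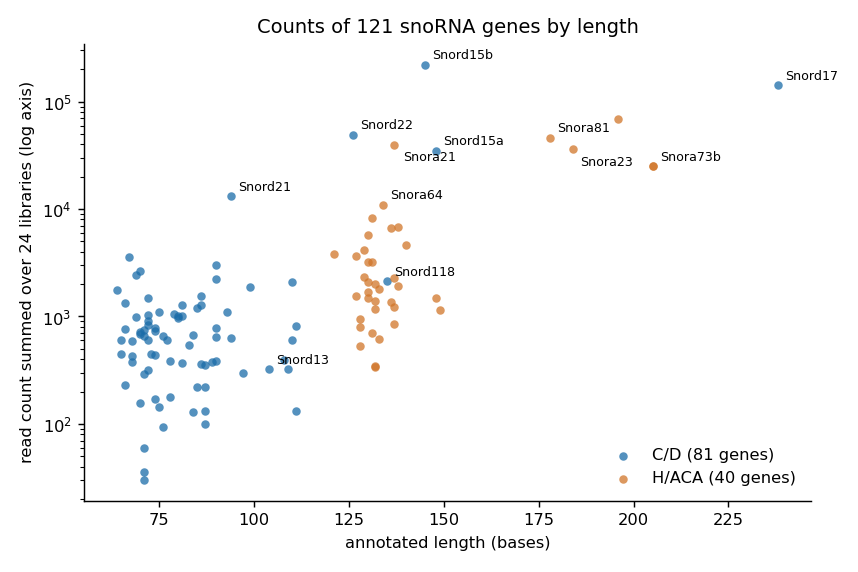
Reads of each of the 121 members summed over 24 libraries (log axis) against annotated length in bases, with C/D members in blue and H/ACA members in orange. The members under 100 bases hold 7.9% of the reads, and Snord15b and Snord17 are the highest points.

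The first comparison asked which members differed between neuronal and glial nuclei. In WT, 11 of 113 tested members (9.73%) were called, with 5 higher and 6 lower in NeuN+ nuclei, against 42.9% of all 33523 tested genes (21.3% higher and 21.6% lower). Members were called where edgeR's quasi-likelihood test gave an adjusted p (Benjamini-Hochberg, over all tested genes) under 0.05 and the log2 difference was above 1 in size. With the adjusted p alone, 15 members were higher and 23 lower, 38 in all, against 72.4% of all genes. The median log2 difference of the members was -0.04, beside -0.01 for all genes. For 62 members the 95% interval of the difference lay within a log2 of 1 in either direction. NeuN+ and NeuN- libraries were read on different lanes, so that the cell type and the lane cannot be told apart, and fewer cells of a type and less RNA per cell cannot be told apart in bulk libraries.

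The imprinted pair showed the largest differences. Snord107 had 3.34, 2.48 and 2.63 CPM in the WT NeuN+ libraries and 0.361, 0.484 and 0.434 CPM in the WT NeuN- libraries. Its groups did not overlap, and the log2 difference was 2.73 ± 0.15 (SE, n = 3 against 3, edgeR adjusted p = 2.2e-13). Snord64 had 4.90, 2.96 and 3.75 CPM in NeuN+ and 0.612, 1.12 and 0.811 CPM in NeuN- libraries. It was likewise higher in every NeuN+ library, with a log2 difference of 2.21 ± 0.20 (edgeR adjusted p = 8.7e-10). Their host, Gm38393, was called higher by 2.17 on the log2 scale. In the same locus, 17 of 17 genes named as Snord116 copies were called higher in NeuN+ nuclei, by 2.18 to 5.16 with a median of 3.49, and Snhg14, the noncoding transcript of the locus, by 3.57. Whether reads of these copies can be told apart was not tested, so they may not be 17 separate results. In the fit within NeuN- nuclei, 6 of the 17 passed the filter on low counts.

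The other members called higher were at low levels. Snord69 had 1.07, 0.859 and 0.925 CPM in WT NeuN+ and 0.331, 0.414 and 0.285 CPM in WT NeuN- libraries, without overlap. Its log2 difference was 1.47 ± 0.24 (edgeR adjusted p = 1.1e-05), and that of its host Gnl3 was 0.74. Snord60, with 0 to 18 reads per library over the 24, had 0.195, 0.0810 and 0.149 CPM in NeuN+ and 0.0501, 0.0691 and 0.0343 CPM in NeuN- libraries. The NeuN+ libraries were all above the NeuN- ones, with a log2 difference of 1.46 ± 0.52 (edgeR adjusted p = 0.015). The call of Snord60 was lost without WT NeuN+ replicate 1 (1.16, edgeR adjusted p = 0.089) or without WT NeuN- replicate 3 (1.25, edgeR adjusted p = 0.062). Snord60 also overlaps Rab26, which lies on the opposite strand, so that the source of its few reads is uncertain. Snord1b, with 1 to 11 reads per library, had 0.178 CPM in WT NeuN+ replicate 2 and 0.0495 to 0.0649 CPM in the other NeuN+ libraries, against 0.0276 to 0.0401 CPM in NeuN-. Its log2 difference was 1.46 ± 0.62 (edgeR adjusted p = 0.041), and without that replicate it was 0.71 (edgeR adjusted p = 0.39). Its call was also lost without WT NeuN- replicate 1, 2 or 3 (edgeR adjusted p of 0.065, 0.093 and 0.081).

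The members called lower in NeuN+ nuclei included the 2 neighbours in Rpl23a. Snord4a had 0.162, 0.178 and 0.198 CPM in WT NeuN+ and 0.822, 0.553 and 0.514 CPM in WT NeuN- libraries. Every NeuN+ library lay below every NeuN- library, and the log2 difference was -1.81 ± 0.30 (edgeR adjusted p = 1.1e-05). Snord42a had 0.276, 0.0810 and 0.0826 CPM in NeuN+ and 0.481, 0.580 and 0.468 CPM in NeuN- libraries. The groups did not overlap, and the log2 difference was -1.78 ± 0.40 (edgeR adjusted p = 3.6e-04). Rpl23a itself differed by -0.39 and its other member, Snord42b, by 0.16. Snord4a and Snord42a overlap Tlcd1, which lies on the opposite strand.

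Of the 40 H/ACA members, Snora20 was the 1 called in WT. It had 0.211, 0.0486 and 0.297 CPM in NeuN+ and 0.491, 0.484 and 0.754 CPM in NeuN- libraries, without overlap. The log2 difference was -1.63 ± 0.36 (edgeR adjusted p = 3.7e-04), whereas its host Tcp1 differed by -0.06. 

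Snord17 was the abundant member among those called. It had 43.6, 48.6 and 49.6 CPM in WT NeuN+ and 110.3, 97.2 and 99.9 CPM in WT NeuN- libraries. The NeuN+ libraries were all lower, by -1.12 ± 0.06 on the log2 scale (edgeR adjusted p = 1.7e-13). Its host Snx5 was also called lower, by -1.02. Snord104, which has no annotated host, had 0.211 to 0.314 CPM in NeuN+ and 0.484 to 0.612 CPM in NeuN- libraries, a log2 difference of -1.02 ± 0.27 (edgeR adjusted p = 0.0019). Snord104 fell short of the fold threshold without WT NeuN+ replicate 1 (-0.89) or without WT NeuN- replicate 1 (-0.90).

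**Figure D2:**
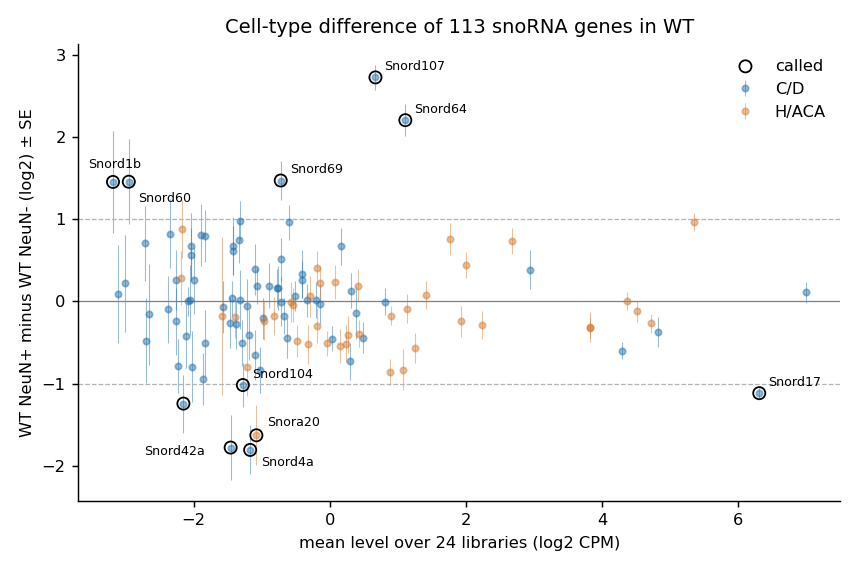
Log2 difference between WT NeuN+ and WT NeuN- libraries (± SE, 3 libraries each) against the mean level over 24 libraries in log2 CPM, for 113 members, C/D in blue and H/ACA in orange. Circles mark the 11 called members, dashed lines stand at a log2 of 1 and -1, and Snord17 is the called member with the highest level.

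Several abundant members differed by less than the fold threshold. Snora74a, an H/ACA member, had 45.3 to 49.7 CPM in WT NeuN+ and 23.3 to 26.4 CPM in WT NeuN- libraries, without overlap. Its log2 difference was 0.97 ± 0.11 (edgeR adjusted p = 5.3e-08), just under the threshold. Snora64 of Rps2 was higher in NeuN+ nuclei by 0.74 ± 0.16 (edgeR adjusted p = 2.5e-04). Snord15a was lower by -0.60 ± 0.10 (edgeR adjusted p = 2.2e-05), with 14.4 to 16.9 CPM against 22.2 to 24.8 CPM. Snord118 was lower by -0.73 ± 0.22 (edgeR adjusted p = 0.0060), Snora73b by -0.33 ± 0.12 (edgeR adjusted p = 0.021) and Snora81 by -0.27 ± 0.12 (edgeR adjusted p = 0.046). Leaving out 1 library raised the edgeR adjusted p to as much as 0.10 for Snora73b and 0.26 for Snora81. Snora73a, the near-identical copy of Snora73b, differed by -0.31. The 5 annotated U3 genes, whose RNA acts in the cleavage of the ribosomal RNA precursor, were also lower, by -0.45 to -0.60, and all 5 had an adjusted p under 0.05. How far the reads of these U3 genes can be told apart was not tested, so they may not be 5 separate results.

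Other abundant members did not pass the test, and their intervals bound the difference. For Snord15b the log2 difference was 0.11 with a 95% interval of -0.15 to 0.38. For Snora23 it was 0.01 (-0.23 to 0.24) and for Snora21 -0.12 (-0.38 to 0.15). Snord15a and Snord15b both lie within Rps3, which differed by -0.01, and share 64.5% of their bases. In Rpl13a, the 95% interval was -0.35 to 0.35 for Snord35a and -1.09 to 0.07 for Snord33.

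The cell-type comparison was repeated in each genotype by the same fit. In libraries labelled Mutyh-/-, 7 members were higher and 3 lower, against 43.9% of all genes called (21.8% higher and 22.1% lower). In those labelled Ogg1-/-, 5 were higher and 5 lower, against 43.9% (21.7% and 22.2%), and in DKO 5 were higher and 6 lower, against 44.4% (20.8% and 23.6%). In all, 16 members were called in at least 1 genotype, against 51.9% of all genes. Called higher in all 4 genotypes were 4 members, Snord107, Snord64, Snord69 and Snord60, against 18.1% of all genes. Called lower in all 4 were 3 members, Snord4a, Snord42a and Snora20, against 18.3% of all genes. The log2 difference of Snord107 was 2.73, 2.49, 2.77 and 2.77 in WT, Mutyh-/-, Ogg1-/- and DKO, and that of Snord64 was 2.21, 2.51, 2.07 and 2.32. Snord4a differed by -1.81, -2.44, -1.90 and -1.98, and Snora20 by -1.63, -1.36, -1.80 and -1.57. Snord17 stayed between -0.90 and -1.12 and was called in WT and Ogg1-/-, and Snora74a lay between 0.95 and 1.22 and was called in Mutyh-/- and DKO. Snord1b, in contrast, differed by 1.46, 0.72, -0.07 and -0.80 in the same order. Of the 113 members, 61 had the same sign in all 4 genotypes.

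**Figure D3:**
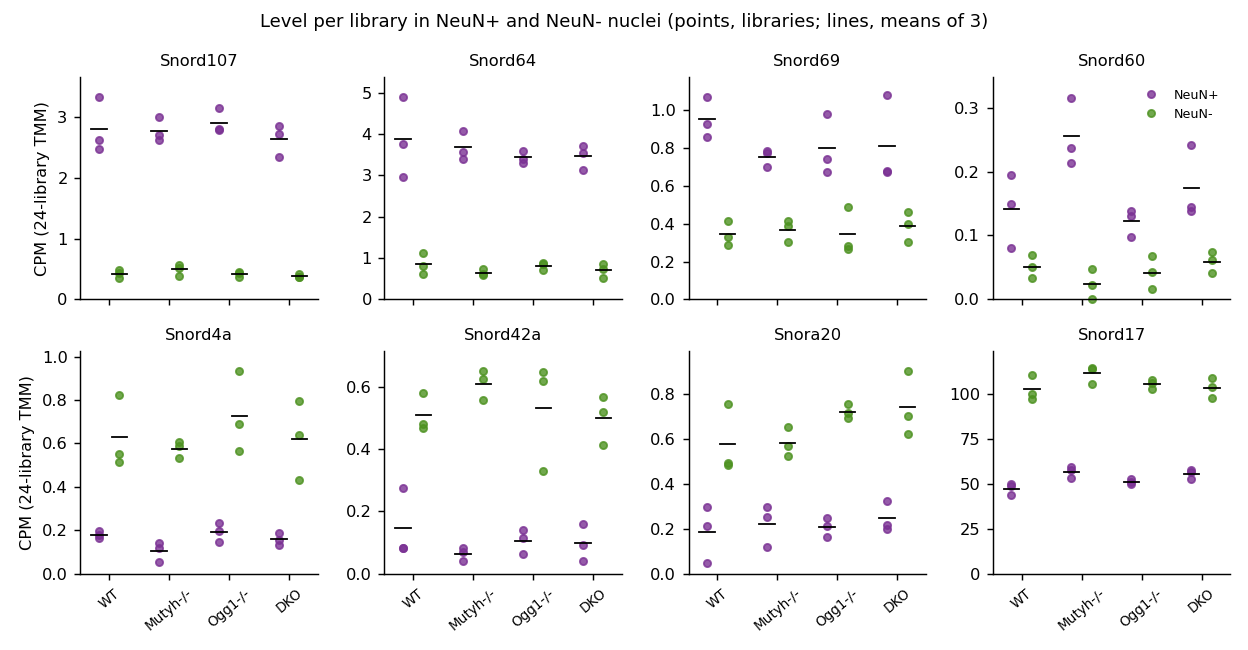
Level of 8 members in each of the 24 libraries, in CPM after TMM normalisation of all libraries, by genotype, with NeuN+ libraries in purple and NeuN- libraries in green (points) and the mean of 3 libraries as a line. In each genotype the NeuN+ mean is above the NeuN- mean in the upper row and below it in the lower row.

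Host genes and their members were compared in WT. For 104 tested members with a tested host, in 75 hosts, 78 members had the sign of their host. Pearson's r between member and host differences was 0.75 and Spearman's rho 0.67, given as a description across genes that share libraries and, often, hosts. Called together with their host in the same direction were 3 members, Snord107 and Snord64 with Gm38393, and Snord17 with Snx5. For the 30 members in 22 ribosomal protein genes, the median difference of the members was -0.15 and that of the hosts -0.13, and no such host was called. The gap between member and host was largest for Snora20, at -1.57, followed by Snord4a at -1.42 and Snord42a at -1.39. How much of a member's count came from its host's precursor was not tested.

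**Figure D4:**
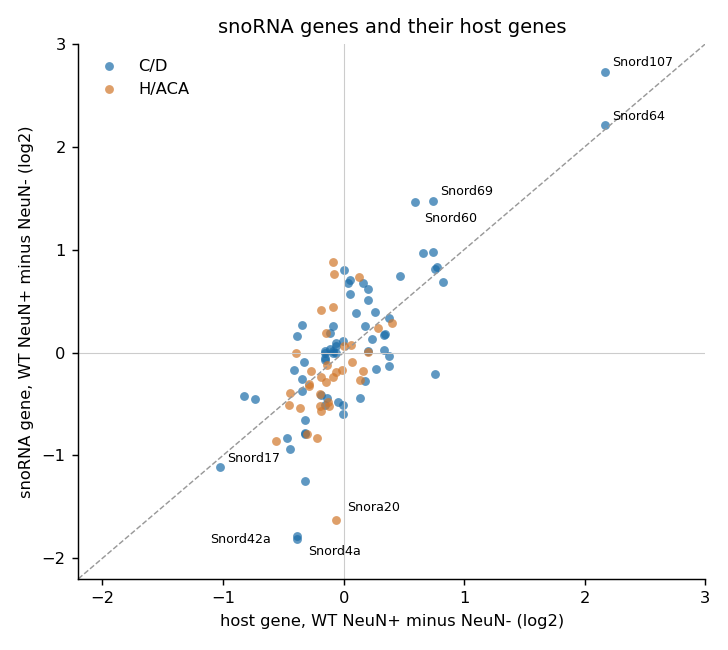
Log2 difference between WT NeuN+ and NeuN- libraries of each member (vertical axis) against that of its host gene (horizontal axis) for 104 members, with the line of equal differences dashed. Snord107, Snord64 and Snord17 lie near the line, and Snord4a, Snord42a and Snora20 lie well below it.

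Genes that work with snoRNAs were examined in the same WT comparison. Of 8 core proteins of the snoRNA particles, 0 were called and 3 had an adjusted p under 0.05 in edgeR's test, all higher in NeuN+ nuclei. These were Nop58 (0.75) and Nop56 (0.76), of the C/D particle, and Gar1 (0.44), of the H/ACA particle. Fbl (-0.02) and Dkc1 (-0.05), the methyltransferase and the pseudouridine synthase, did not pass. Of 12 assembly factors, 0 were called, 9 were higher and 2 lower by adjusted p alone, with the H/ACA assembly factor Naf1 at 0.79. Of 19 tested noncoding hosts, 5 were called higher (Meg3, Rian, Mirg, Snhg11 and Snhg14, by 3.45 to 3.83) and 1 lower (Snhg18, the host of Snord123, by -2.22). Among other noncoding hosts of members, Gas5 stood at 0.20, Snhg1 at -0.35 and Snhg3 at -0.28. Of 10 nucleolar factors, 0 were called. Among other short RNA genes, 22.2% of 9 Scarna genes, 49.5% of 705 miRNA genes and 36.5% of 353 snRNA genes were called, beside the 9.73% of snoRNA members.

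The second comparison asked whether loss of the glycosylases changed the members within a cell type. No member was called in any of the 6 comparisons with WT, where a call needed the same adjusted p and a log2 difference above 0.5 in size, by edgeR's quasi-likelihood test or by DESeq2's Wald test, and 0 passed the adjusted p alone in edgeR. The share of all genes called in NeuN+ nuclei was 0.428% for Mutyh-/-, 0.574% for Ogg1-/- and 0.302% for DKO, and in NeuN- nuclei 0.273%, 0.229% and 0.116%. At an unadjusted p under 0.05, in NeuN+ nuclei 17 of 107 members were higher and 1 lower in Mutyh-/-, 2 and 2 in Ogg1-/-, and 8 and 1 in DKO. In NeuN- nuclei, 7 of 111 were higher and 1 lower in Mutyh-/-, 3 and 2 in Ogg1-/-, and 2 and 0 in DKO. At this limit, 9.48% of all genes were higher and 9.21% lower in Mutyh-/- NeuN+ nuclei, 5.01% and 7.33% in Ogg1-/- and 5.98% and 7.51% in DKO. In NeuN- nuclei these shares were 6.78% and 6.9% in Mutyh-/-, 5.75% and 6.08% in Ogg1-/-, and 6.06% and 6.31% in DKO. The 95% interval of the difference lay within a log2 of 1 for 79, 90 and 82 of 107 members in NeuN+ and for 84, 88 and 89 of 111 in NeuN- nuclei.

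In NeuN+ libraries labelled Mutyh-/-, 73 of 107 members had a difference above 0, beside 48.1% of all genes. Other short RNA genes also stood above 0 more often than not, with 5 of 5 U3 genes (median 0.35), 7 of 9 Scarna genes (0.16), 169 of 272 snRNA genes (0.12, of which 3 were called higher) and 339 of 573 miRNA genes (0.05). The median log2 difference of the members was 0.22, and it was 0.28 for the H/ACA and 0.14 for the C/D members. Of the 40 H/ACA members 34 were above 0. On the CPM scale of the fit within the cell type, Snord17, which had the smallest p, had 55.3, 49.3 and 53.0 CPM, against 39.9, 44.9 and 46.1 CPM in WT. These groups did not overlap, yet the log2 difference of 0.27 ± 0.06 did not pass (edgeR adjusted p = 0.064). Among the abundant members, Snord15b differed by 0.29 ± 0.12, Snora23 by 0.36 ± 0.11, Snord15a by 0.32 ± 0.10 and Snora74a by 0.29 ± 0.09, none past the adjusted threshold. The member share of the library was 0.0512%, 0.0406% and 0.0532% in replicates 1, 2 and 3 labelled Mutyh-/-, against 0.0390% to 0.0438% in WT, so that replicate 2 lay within the WT range. Without replicate 2, Snora23 was called (0.50, edgeR adjusted p = 0.023), and without replicate 3, Snord17 passed the adjusted p but not the fold (0.26, edgeR adjusted p = 0.042). In DESeq2's Wald test 5 members passed the adjusted p without reaching the fold, Snord17, Snora74a, Snora23, Snora15 and Snord15a, by 0.27 to 0.45, beside 6.56% of all genes past that adjusted p. With no filter on low counts 7 members did so in edgeR, the same 5 with Snord22 and Snord15b, beside 3.05% of all genes, whereas with the filter no member and 0.641% of all genes did. The lowest p among members below WT was that of Snord92, with 0.0816, 0.108 and 0.0512 CPM against 0.119, 0.165 and 0.184 CPM, without overlap (-0.99, edgeR adjusted p = 0.24).

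In the other NeuN+ comparisons the median member stood nearer to 0, at 0.03 in Ogg1-/- and 0.06 in DKO. Of the miRNA genes, 388 of 573 were above 0 in Ogg1-/- (median 0.12) and 379 of 573 in DKO (0.14). Of the Scarna genes, 6 of 9 (0.04) and 8 of 9 (0.12) were above 0. For snRNA genes it was 139 and 137 of 272 (0.004 and 0.003), and for U3 genes 4 and 2 of 5 (0.03 and -0.01). Snora30 had 3.94, 2.86 and 2.59 CPM in Ogg1-/- against 5.64, 4.01 and 3.68 CPM in WT. The groups overlapped, and the log2 difference of -0.52 ± 0.19 did not pass (edgeR adjusted p = 0.26) and was -0.31 without WT replicate 1. Snora74a had 53.0, 44.5 and 56.9 CPM against 41.9 to 46.2 CPM (0.22, edgeR adjusted p = 0.29, and 0.14 without Ogg1-/- replicate 3). In DKO, Snord17 had 48.1, 51.4 and 52.7 CPM against 39.9, 44.9 and 46.1 CPM. All DKO libraries were above WT, and the log2 difference of 0.22 ± 0.06 did not pass (edgeR adjusted p = 0.15), though the adjusted p of DESeq2's Wald test was 0.037. Snora75 had 0.184 to 0.222 CPM in DKO against 0.261 to 0.389 CPM in WT (-0.70, edgeR adjusted p = 0.28).

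In NeuN- nuclei the member medians were 0.02 in Mutyh-/-, 0.02 in Ogg1-/- and 0.06 in DKO. Snord14c, a U14 gene within Hspa8, had 1.06, 1.06 and 1.20 CPM in Mutyh-/- against 0.404, 0.576 and 0.735 CPM in WT. The groups did not overlap, and the log2 difference of 0.96 did not pass (edgeR adjusted p = 0.20). Hspa8 itself differed by 0.63, and Snord14d and Snord14e, in the same host, by 0.68 and 0.83. In DKO, Snord14c had 0.596 to 1.34 CPM (0.81, edgeR adjusted p = 0.31), while Hspa8 differed by -0.05. Snora44 had 2.61, 2.67 and 2.13 CPM in Ogg1-/- against 3.29, 3.61 and 3.55 CPM in WT, without overlap (-0.49, edgeR adjusted p = 0.26). In DKO it had 2.14 to 3.64 CPM, which overlapped WT (-0.30, edgeR adjusted p = 0.48), and the difference was -0.12 without DKO replicate 1 and -0.51 without DKO replicate 2. Snord42b had 0.522 to 0.961 CPM in Ogg1-/- against 0.470 to 0.523 CPM in WT (0.64, edgeR adjusted p = 0.31). Snord100 had 0.168 to 0.269 CPM in Mutyh-/- against 0.311 to 0.415 CPM in WT (-0.65, edgeR adjusted p = 0.27).

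**Figure D5:**
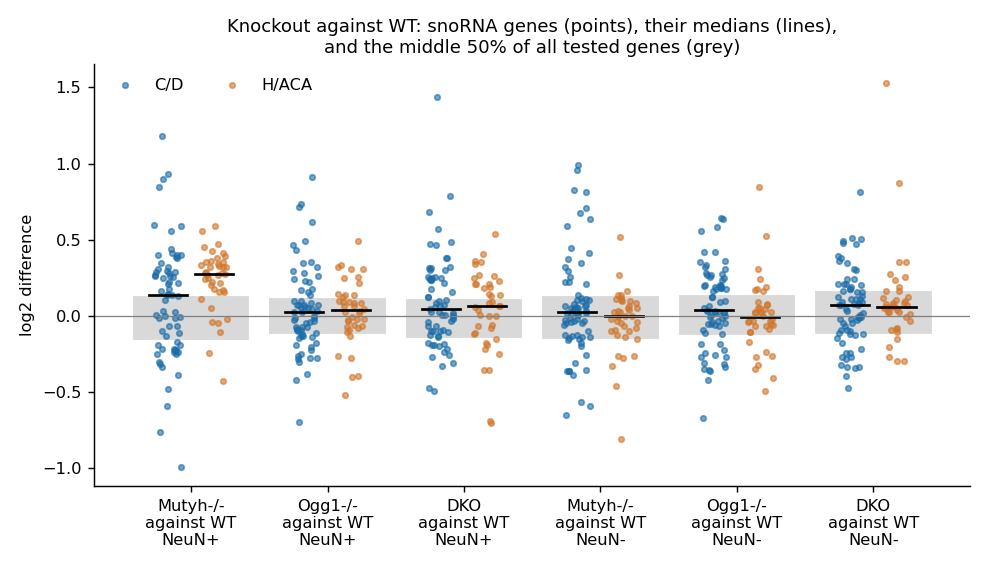
Log2 difference of each tested member from WT in the 6 comparisons, C/D in blue and H/ACA in orange, with the class medians as black lines and the middle 50% of all tested genes as grey boxes. In Mutyh-/- NeuN+ the H/ACA median of 0.28 and the C/D median of 0.14 lie above the grey box, and the other medians lie within theirs.

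The cell-type dependence of each knockout effect was tested as an interaction. No member passed an adjusted p of 0.05 in edgeR's test or in DESeq2, against 0.0209%, 0.0537% and 0.0567% of all genes for Mutyh-/-, Ogg1-/- and DKO. At an unadjusted p under 0.05 there were 7, 3 and 6 of 113 members (8.58%, 7.09% and 9.4% of all genes). The median interaction was 0.15 for Mutyh-/-, with 36 of 40 H/ACA members above 0, -0.02 for Ogg1-/- and 0.03 for DKO. The 6 comparisons share WT libraries within a cell type, so that their values are not independent of each other.

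The ribosomal protein hosts had lower medians than their members in each comparison with WT, and so had the other hosts. Of the other hosts, 37 of 52 were below 0 in Ogg1-/- NeuN+ nuclei, with a median of -0.09 beside 0.03 for their members. In DKO NeuN- nuclei 38 of 52 were below 0, with medians of -0.05 and 0.07. In Ogg1-/- NeuN+ nuclei, 20 of the 21 tested ribosomal hosts were below 0 with a median of -0.34, whereas 15 of their 28 members were above 0 with a median of 0.03. In DKO NeuN+ nuclei, 20 of 21 such hosts were below 0 with a median of -0.27, and 19 of 28 members above 0 with a median of 0.06. In NeuN- nuclei all 22 hosts were below 0 in Ogg1-/- (-0.18) and in DKO (-0.19), and their 30 members had medians of -0.02 and 0.06. None of these ribosomal hosts was called. Of the other hosts, 1 was called in a comparison with WT, Ncl, which encodes the nucleolar protein nucleolin and is the host of Snora75 and Snord82. By the adjusted p of edgeR's test alone, 6 of 79 tested hosts were lower in Ogg1-/- NeuN+ nuclei and 2 in DKO NeuN+ nuclei, Ncl among them. No host passed it in the other comparisons with WT. The shares of all genes at this limit in Ogg1-/- and DKO are not given here, so these counts describe the hosts alone. Ncl was lower in Ogg1-/- NeuN+ nuclei, by -0.53 ± 0.07 (edgeR adjusted p = 6.3e-04), where Snora75 differed by -0.28. In the same nuclei Npm1, another nucleolar factor, passed the adjusted p but not the fold (-0.44, edgeR adjusted p = 0.018), and in DKO both did so, Ncl at -0.36 and Npm1 at -0.40. No other of the 10 nucleolar factors passed in a comparison with WT. Among the core proteins of the particles, 0 of 8 were called in any comparison with WT, nor were any of the 12 assembly factors or of the tested noncoding hosts. Those 6 comparisons gave core protein medians between -0.08 and -0.14 on the log2 scale.

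Snora35, named after its values were seen, varied widely among the NeuN- libraries. It lies in an intron of Htr2c, a serotonin receptor gene known for its expression in the choroid plexus. Snora35 had 17, 16 and 29 reads in WT, 10, 7 and 18 in Mutyh-/-, 1, 34 and 36 in Ogg1-/-, and 0, 29 and 115 in DKO. The lowest libraries were replicate 1 of Ogg1-/- and of DKO, and the highest was DKO replicate 3. In these 3 libraries Htr2c had 14.1, 7.30 and 381 CPM of the library total (without TMM normalisation), and Ttr, a choroid plexus marker, had 5.71, 4.25 and 169 CPM. In WT NeuN- libraries Ttr had 27.3 to 48.1 CPM. Folr1, another listed marker, had 0.172, 0.353 and 3.27 CPM in the same 3 libraries, against 0.476 to 0.932 CPM in WT. Kcnj13, also listed, had 6.97, 7.83 and 11.6 CPM, against 7.47 to 8.27 CPM in WT, so that it varied less and DKO replicate 1 lay within the WT range. Snora35 differed from WT by 1.53 on the log2 scale in DKO NeuN- nuclei and was not called, and the part of choroid plexus nuclei in its counts was not tested.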

How the data were processed

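Nuclear RNA of sorted hippocampal nuclei was sequenced from 24 libraries (8 groups of 3). The authors aligned read pairs with HISAT2 2.1.0 to GRCm38 and deposited featureCounts counts per gene, not normalised, in a table for each cell type. The settings for strand, overlapping features and reads with several matches are not given in the sources used here. Groups were taken from the sample titles. From the deposited counts, edgeR 4.0.16 in R 4.3.3 was run with TMM normalisation, filterByExpr and quasi-likelihood tests, within each cell type (12 libraries) for knockouts against WT and over all 24 libraries for cell types and interactions. P-values were Benjamini-Hochberg adjusted over all tested genes, and standard errors were derived from the F statistic. Of the 121 members, 107 passed the filter in NeuN+, 111 in NeuN- and 113 in the joint fit, and 8 passed in none. CPM for cell types are from the joint fit and CPM for knockouts from the fit within the cell type. FPKM used annotated lengths. DESeq2 1.42.0, other filters and scalings, and leaving out each library were tried as alternatives. The scripts were tested on simulated data. Hosts and sequences came from GENCODE vM21, whose symbols matched all 121 members, and the first of 2 genes was used for 3 of them. Library totals of 56563586 to 96192142 reads set the counting precision, which is low for members with few reads.

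The members and gene lists were chosen with earlier results of these data known. Named members were those called in a comparison with WT or an interaction (there were 0), the member with the smallest p in each direction of each comparison with WT, the called members of the WT cell-type comparison, the 12 with the highest FPKM, and a list of members with known roles. The values of 1 called member of the WT cell-type comparison are not reported here. Of that list, Snord3a, Snord14b, Snora63, Snord44, Snord115 and Snord116 matched no member symbol, and the U3 genes and the Snord116 copies were read under their own symbols.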

Additional observations from a re-analysis of the deposited data

How the results depend on the processing

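The counts of called members in the comparisons with WT and in the interactions stayed at 0 under RLE size factors, DESeq2, other filters and the replicate block, those in the comparisons with WT also in a fit of the 2 groups compared, and the leave-one-out counts were 0 to 1 in Mutyh-/- NeuN+ nuclei. For cell types, the calls in WT, Mutyh-/-, Ogg1-/- and DKO numbered 4, 5, 4 and 6 where at least 10 reads were required in every library, since fewer low members were then tested, and 38, 37, 31 and 30 with no fold threshold. Members without a similar copy or a gene on the opposite strand, an alternative chosen after seeing the data, gave 6, 6, 7 and 6 calls in the same order, with 71 members tested in place of 113. Within a genotype, same-numbered libraries of the 2 fractions had correlations of deviations of 0.011 to 0.29 (mean 0.11, against -0.055 for other numbers), over 0.1 in 6 of 12 pairs, among them all 3 pairs of DKO, and the labels do not say what a number shares. With the replicate block 10, 10, 10 and 12 members were called in WT, Mutyh-/-, Ogg1-/- and DKO. The shares of all genes called in the cell-type comparisons under these settings are not given here, apart from 72.4% in WT with no fold threshold. These counts therefore describe the members alone. Snord1b lost its call with the block, with DESeq2 and with no filter (adjusted p of 0.088, 0.083 and 0.069). Named members were followed under the alternatives only in part. They were those with the smallest p against WT and, for cell types in WT, those with an adjusted p under 0.05 in edgeR's test. None of these changed direction under any alternative run. RLE size factors moved the members' median by at most 0.02 in each comparison. Members with few reads are limited by counting error, and a difference missed there is not shown to be absent.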
